A study of Mus musculus with 44 samples.

Results

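RNA held back by beads coated with control IgG was set against input RNA in C2C12 cells, on the day differentiation began and 6 days later. The members are 18 of the 44 arrays of the study, chosen by their labels: IgG pulldown on day 0 (4 arrays), input on day 0 (5 arrays), IgG pulldown on day 6 (4 arrays) and input on day 6 (5 arrays). The study pulled down the RNA-binding protein AUF1 during muscle differentiation, and the IgG arrays were its control. C2C12 is 1 established line of mouse myoblasts, and the labels give no engineered allele. Day 0 cells were growing in medium with fetal serum, and day 6 cells had been moved to horse serum medium. The labels call the cells myoblasts on both days, and neither name was checked against marker genes because the probes carry no gene names here. All 18 arrays share the line and, per the labels' protocols, amplification with an oligo-dT primer and biotin labelling. The sample titles speak of input DNA, but the descriptions and the molecule field give RNA, which is how the values were read.

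In RNA immunoprecipitation, a cell lysate is mixed with beads that carry an antibody, and the RNA that stays on the beads after washing is measured. Control IgG is raised against no protein of the cell, so the RNA recovered with it serves as the background of the method. Input RNA is taken from the cells without this step. Myoblasts leave the cell cycle, switch on muscle genes and fuse into myotubes when serum is lowered.

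An Illumina bead array reports a brightness (signal) for each probe and a detection p-value, which ranks the probe's signal among negative-control beads. A probe was called detected at a detection p under 0.05. None of the 25697 probe identifiers could be paired with a gene (0 matched the gene table at hand), so results are given for probes, sets of probes and a few identifiers, and no sequence is shown. Signals were background corrected, quantile normalized over the 18 arrays and taken to log2, and 14207 probes detected on at least 3 arrays were tested. Quantile normalization gives every array the same distribution, so the total amount of RNA recovered was not measured: higher and lower mean relative to the other probes. The labels do not say whether replicates came from separate cultures, and p-values therefore measure only the spread between these samples. Array numbers run from the pulldowns through to the inputs, so array order and pulldown cannot be told apart.

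The number of probes detected was not called different between IgG and input after adjustment, and IgG arrays were less alike than input arrays. On day 0 the 4 IgG arrays detected 46.3%, 34.02%, 43.2% and 44.7% of the probes (experiments 1 to 4), against 47.4%, 47.4%, 46.02%, 47.1% and 45.9% on the input arrays. The mean was 42.02% ± 5.49 for IgG (SD, n = 4) and 46.7% ± 0.74 for input (SD, n = 5), a difference of -4.72 percentage points (exact permutation test, two-sided p = 0.0238; adjusted p = 0.0952 over 4 tests). The IgG array of experiment 2 stood well below the rest, and 3 of the 4 IgG arrays lay below every input array.

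On day 6 the IgG arrays detected 45.8%, 45.5%, 35.7% and 45.2%, against 48.1%, 47.5%, 48.7%, 45.9% and 44.7% on the input arrays. The groups overlapped, with the IgG array of experiment 3 alone below every input array. The difference was -3.95 points (exact permutation, two-sided p = 0.0794; adjusted p = 0.159). Neither day's difference passed after adjustment.

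Mean deposited signal was 278 ± 87.9 on IgG arrays and 273 ± 55.3 on input arrays of day 0, and 261 ± 37.3 on IgG arrays and 253 ± 49.0 on input arrays of day 6 (SD, n = 4 IgG and 5 input arrays). These differences were far inside the spread (exact permutation, two-sided p = 0.921 on day 0 and 0.81 on day 6). After normalization the SD of the median probe between replicates was 0.43 and 0.38 log2 units in IgG on days 0 and 6, against 0.29 and 0.22 in input. The 2 dim IgG arrays were also the farthest from input: 41.4% (day 0, experiment 2) and 44.3% (day 6, experiment 3) of tested probes were at least 2-fold away from the input mean of their day. This share lay between 13% and 28.1% for the other day 0 IgG arrays and between 23.4% and 30.4% for those of day 6. The 13% belonged to experiment 4 of day 0, the IgG array nearest to input. Among the input arrays, that of experiment 4 on day 0 stood apart from its group toward day 6 in the RNAs that change with differentiation.

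**Figure D1:**
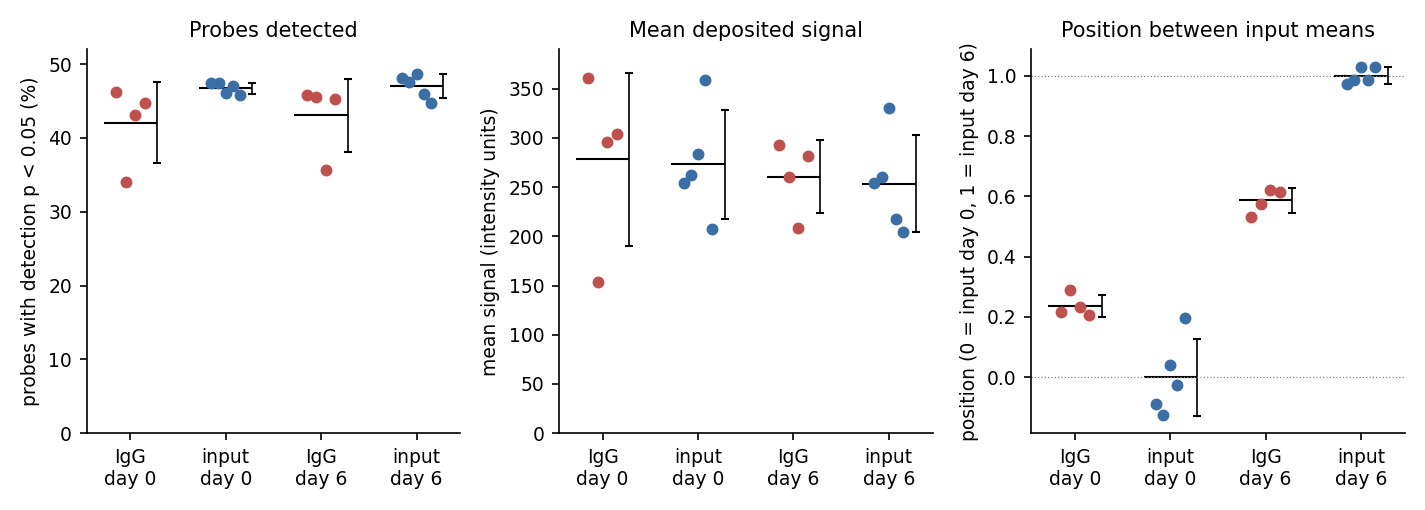
Detected probes (percent), mean deposited signal (intensity units) and position along the input change (0 for the input mean of day 0 and 1 for that of day 6, over 487 probes) for each of the 18 arrays. Points are arrays, horizontal lines means and bars SD, for IgG (red) and input (blue). The IgG arrays with 34.02% and 35.7% of probes detected stand below the others, and the IgG arrays of both days lie between the 2 input means in the right panel.

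RNA recovered with IgG differed from input for a large share of probes, in both directions. On day 0, 5393 of 14207 probes differed between IgG and input at an adjusted p under 0.05 (limma, Benjamini-Hochberg), which is 38% of those tested. Of these, 2601 were higher in IgG (18.3% of those tested) and 2792 lower (19.7%). At least 2-fold differences were seen for 1567 of the higher and 1751 of the lower probes, and at least 4-fold ones for 271 and 425. Called probes had a median size of 1.15 log2 units. The test takes a single spread per probe, pooled over all groups, although IgG arrays spread more than input arrays. The part of this in the calls was not tested.

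On day 6, 6377 probes differed (44.9%), 3282 of them higher in IgG (23.1% of those tested) and 3095 lower (21.8%). The difference was at least 2-fold for 1995 of the higher and 2072 of the lower probes and at least 4-fold for 360 and 736. Their median size was 1.20 log2 units. Large depletion was thus more frequent than large enrichment on both days, by 425 probes to 271 on day 0 and 736 to 360 on day 6. Leaving out both dim IgG arrays gave 5440 calls on day 0 and 6493 on day 6, and leaving out the input array of experiment 4 on day 0 gave 5487 and 6570.

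Probes with the most extreme differences are described array by array. They were picked as extremes among the called probes whose IgG arrays all lay on the same side of the input arrays, so their sizes show how far the range reached.

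The 2 probes lowest in IgG were the same on both days. ILMN_2694960 stood at 5.83, 4.74, 4.38 and 9.01 (normalized log2 signal) on the IgG arrays of day 0, against 11.36, 11.36, 10.74, 11.51 and 10.55 on the input arrays. The day 6 readings were 5.91, 5.28, 4.56 and 6.78 on the IgG arrays, against 10.75, 11.03, 11.28, 11.14 and 10.94 on the input arrays. Every input array was bright and the groups did not overlap, while IgG arrays ranged widely, with the highest value in experiment 4 on both days. The difference was -5.12 ± 0.65 on day 0 (log2, SE; adjusted p = 1.69e-05) and -5.40 ± 0.65 on day 6 (adjusted p = 3.6e-06). The SE comes from a spread pooled over all groups, while on day 0 the SD was 2.11 in IgG and 0.43 in input. The probe was detected on 2 of 4 IgG arrays on day 0 and on 3 of 4 on day 6.

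ILMN_2918479 was brighter in input and followed the same order. The IgG arrays read 8.21, 7.67, 5.56 and 10.94 on day 0, against 13.76, 13.58, 12.45, 13.46 and 12.38 on the input arrays. The IgG arrays of day 6 read 8.21, 7.40, 5.07 and 8.82, against 12.57, 12.87, 13.72, 12.89 and 13.10 on the input arrays. No IgG array reached an input array. The difference was -5.03 ± 0.80 on day 0 (log2, SE; adjusted p = 0.000119) and -5.66 ± 0.80 on day 6 (adjusted p = 1.78e-05).

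The probes highest in IgG differed between the days. ILMN_2733073 read 10.88, 11.81, 10.57 and 8.14 on the IgG arrays of day 0, against 4.36, 4.32, 5.30, 4.71 and 7.43 on the input arrays. ILMN_2416670 read 12.03, 11.44, 11.31 and 10.78 on the IgG arrays of day 0, against 5.83, 5.45, 6.38, 5.60 and 9.12 on the input arrays. ILMN_2733073 was detected on 3 of the 5 input arrays, so its input mean is partly set by values at background. In both probes the input array of experiment 4 was the highest of its group and the groups still did not overlap. ILMN_2733073 was higher in IgG by 5.12 ± 0.63 (log2, SE; adjusted p = 1.13e-05) and ILMN_2416670 by 4.91 ± 0.58 (adjusted p = 8.61e-06).

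On day 6 those 2 probes did not pass the test. ILMN_2733073 averaged 10.90 ± 0.67 in IgG (SD, n = 4) and 10.26 ± 0.09 in input (SD, n = 5), a difference of 0.64 ± 0.63 (adjusted p = 0.432, limma). ILMN_2416670 averaged 12.05 ± 0.99 in IgG (SD, n = 4) and 11.98 ± 0.24 in input (SD, n = 5), a difference of 0.07 ± 0.58 (adjusted p = 0.933, limma). Both belonged to the RNAs whose input signal climbed by day 3, and on day 0 the IgG arrays already carried them near the level that input had on day 6.

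The highest probes of day 6 had the opposite history, a fall in input. ILMN_2675833 read 9.59, 8.64, 9.43 and 9.21 on the IgG arrays of day 6, against 4.78, 5.33, 5.29, 4.98 and 4.88 on the input arrays. ILMN_2789692 read 8.80, 8.07, 9.66 and 8.54 on the IgG arrays, against 4.88, 4.87, 5.11, 4.73 and 4.72 on the input arrays. The input arrays sat close to the detection limit and every IgG array was far above them. ILMN_2675833 was higher in IgG by 4.17 ± 0.31 (log2, SE; adjusted p = 1.86e-08) and ILMN_2789692 by 3.91 ± 0.28 (adjusted p = 9.21e-09). On day 0, when both were still present in input, the differences were 1.18 ± 0.31 and 1.03 ± 0.28 (adjusted p = 0.00646 and 0.00633).

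**Figure D2:**
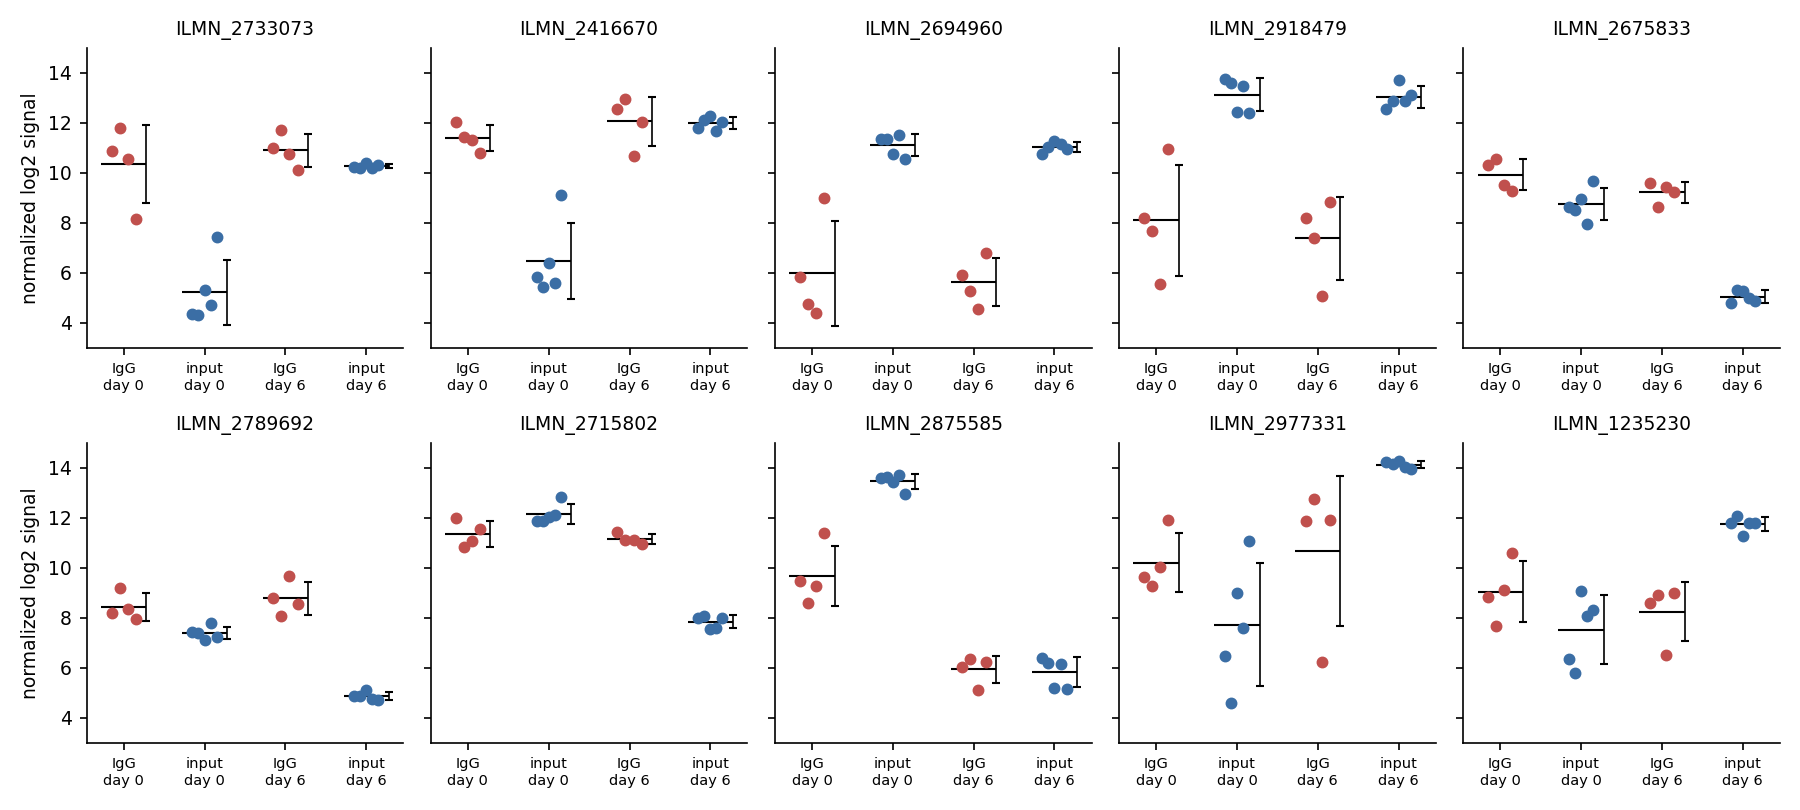
Normalized log2 signal of the 10 named probes on each array of IgG (red) and input (blue) on days 0 and 6, with the mean (line) and SD (bar). ILMN_2694960 and ILMN_2918479 are low in IgG on both days, and in the other panels the input mean moves between days by more than the IgG mean.

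The same probes were measured in the AUF1 pulldowns, which share the input arrays with the IgG comparison, so the values are only set side by side. With all 44 arrays normalized together, ILMN_2694960 averaged 5.23 with AUF1, 5.83 with IgG and 10.85 in input on day 0. On day 6 it averaged 5.23 with AUF1, 5.44 with IgG and 10.77 in input. ILMN_2675833 averaged 9.28 with AUF1, 8.93 with IgG and 4.92 in input on day 6. ILMN_2416670 averaged 8.60 with AUF1, 11.14 with IgG and 6.23 in input on day 0. ILMN_2694960 and ILMN_2675833 stood at like levels in both pulldowns, while ILMN_2416670 was lower with AUF1 than with IgG. The other depleted probe, ILMN_2918479, averaged 6.37 with AUF1 and 7.82 with IgG on day 0, and 6.94 and 7.11 on day 6. ILMN_2733073 averaged 7.805 with AUF1 and 10.08 with IgG on day 0.

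The IgG minus input difference fell modestly from dim to bright probes. Probes were ordered into deciles (10 groups of equal size) by their mean signal on the 5 input arrays of day 3, which enter neither comparison. Brightness also differs between probes for reasons of hybridization, so this order follows abundance only roughly. Normalization gave all arrays the same distribution, and IgG arrays follow input arrays imperfectly. A fall of the difference with input signal is then favoured in advance, and the part of this in the steps below was not tested. On day 0 the median IgG minus input difference was 0.14 in the dimmest decile and -0.22 in the brightest, which is -0.36 log2 units from bottom to top. Taken per IgG array, this step was -0.28 ± 0.16 (SD, n = 4). On day 6 the medians were 0.22 in the dimmest decile and -0.29 in the brightest, a step of -0.51, or -0.40 ± 0.14 per array (SD, n = 4). Across the 14207 probes, r between difference and abundance was -0.16 on day 0 and -0.25 on day 6, which describes probes measured on the same arrays and is no test.

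These steps were small beside the spread within each decile. In the brightest decile the lower and upper quartiles were -0.86 and 0.34 on day 0, and -1.04 and 0.33 on day 6. Called probes were least frequent in the dim deciles and stayed frequent in the bright ones. On day 0 the share called was 21.5% in the dimmest decile, 48.6% in deciles 6 and 8, and 44.8% in the brightest. On day 6 it was 19.2% in the dimmest, 58.7% in decile 6 and 51.4% in the brightest. The background shares are 38% on day 0 and 44.9% on day 6.

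The direction of the calls also shifted with input signal. In the brightest decile 28.9% of probes were lower and 15.9% higher in IgG on day 0, and 35% were lower and 16.4% higher on day 6. In the dimmest decile 6.34% were lower and 15.1% higher on day 0, and 0.704% lower and 18.5% higher on day 6. Many dim probes are at the detection limit: 7.18% of the dimmest decile were detected on every IgG array and 8.45% on every input array on day 0. On day 6 the shares were 9.79% on every IgG array and 0.704% on every input array. This limits what could be called there, above all as lower in IgG on day 6. Probes dim in input could also enter the tested set through the IgG arrays, and the part of this in the split and the step was not tested. The step changed with the probes admitted: with no filter on detection it was -0.18 on day 0 and -0.22 on day 6, and over probes detected on every array of at least 1 group it was -0.78 on day 6. Without the 2 dim IgG arrays it was -0.26 on day 0 and -0.36 on day 6.

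**Figure D3:**
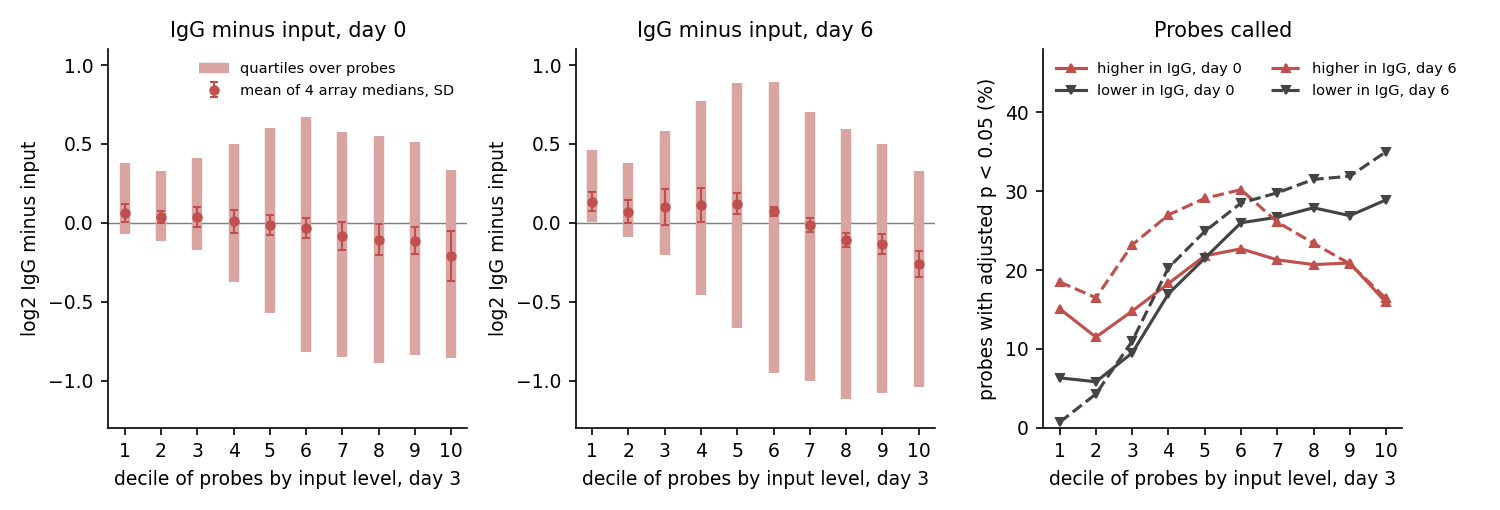
IgG minus input (log2) by decile of probes in input signal of day 3, from dimmest (1) to brightest (10), on day 0 (left) and day 6 (middle), with bars for the quartiles over probes and points for the mean and SD of 4 IgG arrays, and (right) the percent of probes called higher (red) or lower (dark) on day 0 (solid) and day 6 (dashed). Medians slope from above 0 to below 0, while the quartiles span both signs in 9 deciles on day 6 and all 10 on day 0.

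Presence and absence were also counted over the whole table of 25697 probes. Detected on every IgG and every input array were 7446 probes on day 0 and 7532 on day 6, and 6464 of them on both days. Seen on every input array and on no IgG array were 176 probes on day 0 and 380 on day 6, with 68 shared (38.6% of the day 0 set and 17.9% of the day 6 set). Their signals were low, with a median of 64.8 in IgG and 79.9 in input on day 0. The reverse class, seen on every IgG array and on no input array, held 27 probes on day 0 and 94 on day 6, and 3 were in both. Of the 94 probes of day 6, 73 were detected on at least 1 input array of day 0 and 19 on all 5. Of the 27 probes of day 0, 21 were detected on at least 1 input array of day 6 and 7 on all 5. The share over all probes is not given here, so nothing is read from these counts. Classes that need every array follow the dimmest array of the group, and both IgG groups hold a dim one.

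Most probes called on 1 day were called in the same direction on the other. Days 0 and 6 share no arrays, but they were normalized together and fitted with the same spread per probe. The part of this in the overlap was not tested. Over all tested probes 18.3% were called higher and 19.7% lower on day 0, and 23.1% and 21.8% on day 6. Of the probes called higher in IgG, 1734 were shared, which is 66.7% of the day 0 calls and 52.8% of the day 6 calls. Of those called lower, 1785 were shared (63.9% of day 0 and 57.7% of day 6). Opposite calls were rare, with 48 probes higher on day 0 and lower on day 6, and 100 the other way round. Across all 14207 probes the differences of the 2 days correlated at r = 0.72 (rho = 0.70), over probes that are not independent of each other.

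Calls made on 1 day only were in many cases on the same side on the other day. Of 1726 probes called on day 0 only, 76.2% had the same sign on day 6, and of 2710 called on day 6 only, 75.8% had the same sign on day 0. The same-sign share over all tested probes is not given here, and their differences correlated at r = 0.72. Nothing about the called probes is therefore read from these shares. In the test of the difference between days, 329 of the 1726 (19.1%) and 656 of the 2710 (24.2%) passed, against 9.25% of all tested probes. Being called on 1 day only, on the same arrays, favours such a difference, so the shares are a description. The remaining probes were called on 1 day without a called difference between days. Without the 2 dim IgG arrays 3543 calls were shared in direction, 1820 higher and 1723 lower, and 183 were opposite.

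At least 4-fold and in the same direction on both days were 104 probes higher in IgG and 276 lower. The 104 had median differences of 2.50 on day 0 and 2.42 on day 6. Of them 102 were detected on all IgG arrays of both days, against 7036 of all 14207 tested probes. The 276 had medians of -2.48 on day 0 and -3.03 on day 6. All 276 were detected on every input array of both days, against 9276 of the 14207. Detection in the brighter group is largely fixed by the choice of a 4-fold difference, so nothing is read from these counts. Bright probes were frequent among the 276: 146 (52.9%) lay in the top quintile of input signal, against 20% of all tested, and 0 in the bottom quintile. Among the 104, 7 (6.73%) lay in the top quintile, 5 (4.81%) in the bottom one and 92 between them. A dim probe cannot show a 4-fold loss above background, and the part of this in the contrast was not tested. Without background correction, which compresses differences at low signal, the sets held 27 and 94 probes, and without the 2 dim IgG arrays 80 and 219.

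The same probes were looked up on arrays that neither comparison uses, the IgG pulldowns of days 2 and 4 (7 arrays) against input of day 3 (5 arrays), an alternative added after the data were seen. This comparison called 48.5% of all tested probes. There 1615 of the 1734 shared higher probes were called higher, against 23.5% of all tested probes, and 1732 were positive. Of the 1785 shared lower probes 1720 were called lower, against a background of 25%, and 1 was positive. All 104 strongly enriched probes were at least 2-fold higher, against 13.9% of all tested, and all 276 strongly depleted probes at least 2-fold lower, against 15.7%. These pulldowns also hold dim arrays (39.3% detected on day 2 and 25.6% on day 4, both experiment 2); without them 1644 of the 1734 were called higher and 1694 of the 1785 lower.

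**Figure D4:**
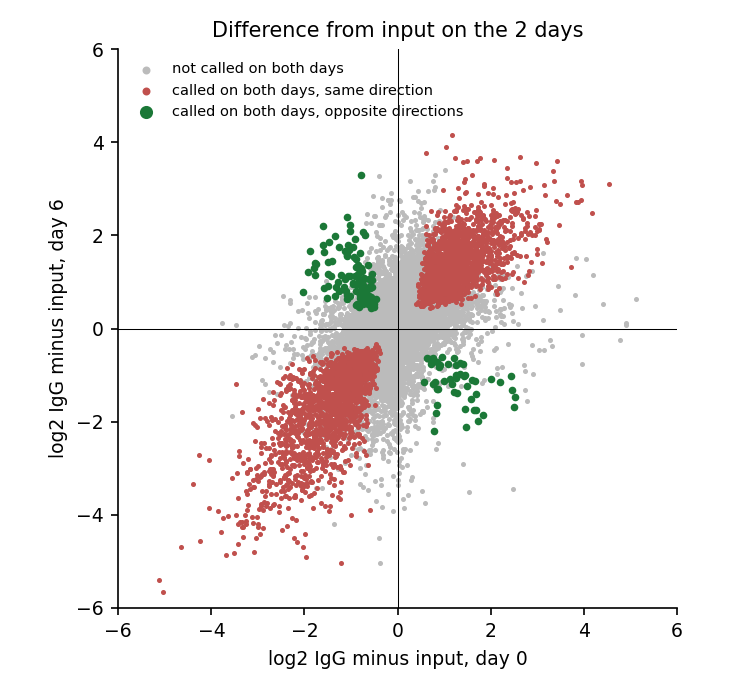
IgG minus input (log2) on day 0 (horizontal) and day 6 (vertical) for 14207 probes. Red probes were called in the same direction on both days (1734 higher and 1785 lower), green probes in opposite directions (148), and grey probes were not called on both days.

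Differentiation moved the IgG RNA less than the input RNA. Between day 0 and day 6, 459 of 14207 probes changed in IgG (3.23%), 371 up and 88 down, and 4138 changed in input (29.1%), 2020 up and 2118 down. Changes of at least 4-fold numbered 89 in IgG (81 up, 8 down) and 596 in input (369 up, 227 down). The IgG groups hold 1 array fewer each. Both counts use the same pooled spread per probe, although IgG arrays spread more than input arrays. The part of either in the counts was not tested. The IgG count varied with processing, from 269 with arrays scaled to a common median and SD to 1199 with array weights. The sizes differed too: the mean profiles of IgG on day 0 and day 6 correlated at r = 0.97, those of input at 0.90. IgG and input of the same day correlated at 0.89 on day 0 and 0.86 on day 6.

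The comparison was also made for the RNAs that changed most in the cells. By day 3, 296 probes had risen and 191 had fallen at least 4-fold in input, a choice made on the input arrays of days 0 and 3. Their input change from day 0 uses those day 0 arrays again, so its size is partly fixed by the choice and is given as a description. In bulk RNA, fewer cells of a type and less RNA per cell cannot be told apart. Among the 296 that rose, the median change by day 6 was 3.26 log2 units in input and 1.17 in IgG. IgG moved in the same direction as input for 273 of the 296 (92.2%), against 61.2% of all tested probes, and 128 of them rose by the test, where 2.61% of all tested probes rose in IgG. Among the 191 that fell, the median change was -2.56 in input and -0.36 in IgG, with 151 of the same sign (79.1%). By the test 14 of the 191 fell in IgG, against 0.619% of all tested probes.

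On day 6 IgG stood short of the input change in both sets. Of the 296 risers, 197 (66.6%) were lower in IgG than in input on day 6, against 21.8% of all tested probes, with a median difference of -1.39. Of the 191 fallers, 121 (63.4%) were higher in IgG on day 6, against 23.1% of all tested, with a median of 1.39. Without the 2 dim IgG arrays these counts were 196 of 296 and 135 of 191. On day 0, whose input arrays took part in the choice, the medians were 0.31 for the risers and -0.79 for the fallers, and nothing is read from the counts there (95 of 296 higher, 96 of 191 lower).

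Placed on a scale on which the input mean of day 0 is 0 and that of day 6 is 1, over these 487 probes, IgG arrays averaged 0.24 ± 0.04 on day 0 (SD, n = 4; from 0.21 to 0.29) and 0.59 ± 0.04 on day 6 (SD, n = 4; from 0.53 to 0.62). Input arrays lay between -0.12 and 0.20 on day 0, and between 0.97 and 1.03 at the later time. On day 6 the positions of IgG and input arrays did not overlap, which only describes these arrays. The choice of probes uses the day 0 input arrays, and the ends of the scale are the input means of days 0 and 6. Input arrays therefore lie near 0 and 1 by construction. The positions and the slope below are partly fixed by this, and no separation is read from either day. The 2 dim IgG arrays were the highest of their day, at 0.29 and 0.62. Over the 487 probes the slope of the IgG change on the input change was 0.33 (r = 0.76), and over all 14207 probes 0.29 (r = 0.52).

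**Figure D5:**
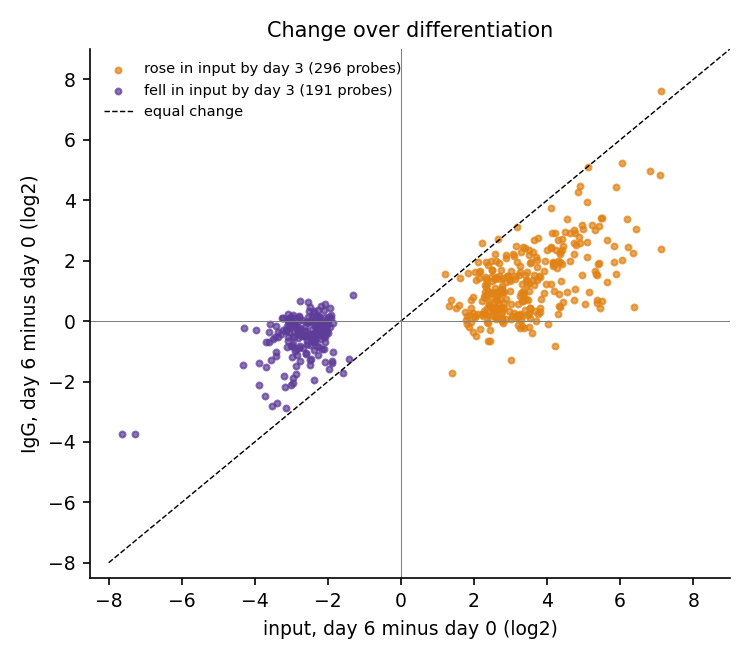
Change from day 0 to day 6 (log2) in input (horizontal) and in IgG (vertical) for 296 probes that rose (orange) and 191 that fell (purple) in input by day 3. Most points lie between the dashed line of equal change and the horizontal line of no change in IgG.

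The test of the difference between days asked where the IgG minus input value itself changed. It called 1314 of 14207 probes (9.25%), 693 with a higher IgG minus input value on day 6 than on day 0 (4.88%) and 621 with a lower one (4.37%). Among the 693 the median change was 0.09 in IgG and -1.36 in input, and 628 had fallen in input by its own test. Among the 621 it was 0.11 in IgG and 1.74 in input, and 598 had risen in input. These sets share their arrays with the test, so the split only describes where the difference arose. Array weights raised the count to 3652, and the opposite calls of the 2 days to 464.

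The probes at the ends of this test show the pattern array by array. ILMN_2715802 read 11.98, 10.82, 11.08 and 11.53 in IgG on day 0, against 11.88, 11.86, 12.04, 12.10 and 12.84 in input, where the groups overlapped. The day 6 IgG arrays read 11.42, 11.09, 11.10 and 10.95, against 8.01, 8.09, 7.54, 7.59 and 8.01 in input. IgG stayed bright while input dropped, and IgG minus input was -0.79 ± 0.24 on day 0 (log2, SE; adjusted p = 0.0137) and 3.30 ± 0.24 on day 6 (adjusted p = 1.28e-08). The difference between days was 4.09 ± 0.34 (adjusted p = 1.2e-06).

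In ILMN_2875585 the IgG signal also fell by a large amount. It read 9.48, 8.59, 9.25 and 11.39 in IgG on day 0, against 13.60, 13.61, 13.41, 13.70 and 12.93 in input. By day 6 the values were 6.04, 6.35, 5.13 and 6.22 in IgG, against 6.40, 6.17, 5.20, 6.16 and 5.16 in input. The clear depletion of day 0 was not seen on day 6, when all arrays of both groups were dim and overlapped. Input averaged 5.82 on day 6, too near background for a difference of the day 0 size (-3.77) to show. The difference between days was 3.88 ± 0.61 (log2, SE; adjusted p = 0.000475).

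ILMN_1235230 and ILMN_2977331 rose in input. ILMN_1235230 read 8.84, 7.66, 9.10 and 10.59 in IgG on day 0, against 6.36, 5.80, 9.05, 8.06 and 8.33 in input. By day 6 they were 8.57, 8.89, 6.49 and 8.98 in IgG, against 11.80, 12.06, 11.27, 11.80 and 11.80 in input. The groups overlapped on day 0 and were far apart on day 6, and the difference between days was -5.04 ± 0.91 (log2, SE; adjusted p = 0.0015).

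ILMN_2977331 had the lowest value of the test and the least secure one. It read 9.65, 9.27, 10.01 and 11.90 in IgG on day 0, against 6.45, 4.58, 8.98, 7.57 and 11.05 in input. On day 6 it read 11.85, 12.73, 6.23 and 11.89 in IgG, against 14.21, 14.14, 14.27, 14.02 and 13.95 in input. The input arrays of day 0 spanned a wide range and the dim IgG array of experiment 3 stood far below the other IgG arrays of day 6. The difference was -5.92 ± 1.66 (log2, SE; adjusted p = 0.0299). The call was lost in 6 of 29 alternatives, with adjusted p up to 0.0835: with no detection filter, with same-numbered input arrays averaged, and without the IgG array of experiment 4 on day 0, either input array of experiment 1 on day 0, or 1 input array of experiment 3 on day 6.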

How the data were processed

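Per the file headers, the deposited table pairs a bead signal intensity with a detection p-value, for 25697 probes and 44 arrays, and the authors deposited the intensities without normalization. Per the submitters' processing notes, GenomeStudio 1.6.0 was used; for background subtraction, the sources used here give nothing. Column names give group, experiment number and array number, and columns were assigned to groups. No 2 columns were identical (0 pairs). The lowest deposited signal was 32.4 and the highest 37011, and no bead counts were used, so the number of arrays limits the precision.

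Processing of the 18 arrays used limma 3.58.1 (R 4.3.3): normal-exponential background correction inferred from detection p-values, an offset of 16, quantile normalization and log2 (neqc). Probes with detection p under 0.05 on at least 3 arrays were tested with a mean per group (lmFit, contrasts, eBayes) and Benjamini-Hochberg adjustment, with calls at adjusted p under 0.05. Each probe had a single spread, pooled over the groups, behind its SE and p-values. The procedure was tested on simulated data. Detected share and mean signal, 4 tests, were compared by exact permutation of 126 arrangements, whose smallest two-sided p is 0.00794.

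Named probes are, per day, the 2 highest and 2 lowest log2 differences among called probes detected on every array of the brighter group, with every IgG array on the same side of every input array, and the 2 highest and 2 lowest called differences between days. Gene lists and cell type markers are not analysed here because no probe has a gene name. Members, lists and settings were chosen with earlier results of these data known. Alternatives covered normalization, background correction, detection filter, arrays included, block, weights, moderation and leaving out each array.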

Additional observations from a re-analysis of the deposited data

Results flagged for a closer look

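Single arrays stood apart from the rest of their group in 5 of 52 groups of values looked at, where chance marks about 1 in 20 independent groups. These groups are not independent, since they share arrays. On day 6, experiment 3 gave an IgG array with 35.7% of probes detected, while the next lowest array of that group detected 45.2%. The same array read 6.23 for ILMN_2977331, with the next at 11.85, and 6.49 for ILMN_1235230, with the next at 8.57 (normalized log2 signal). The input array of experiment 4 on day 0 read 9.12 for ILMN_2416670, with the next at 6.38, and 12.84 for ILMN_2715802, with the next at 12.10. This input array was also the one nearest to day 6 over the 487 probes that changed in input.

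The IgG minus input value differed between days for 1314 probes by the test of the difference itself. At its ends, the change from day 0 to day 6 was 4.09 for ILMN_2715802, 3.88 for ILMN_2875585, -5.92 for ILMN_2977331 and -5.04 for ILMN_1235230 (log2).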

How the results depend on the processing

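The 5393 calls of day 0 and 6377 of day 6 stayed within 1.5 times under each of 30 alternatives (4578 to 7120 and 5679 to 9372). The 1314 calls of the difference between days did so under 28 of 29, with 3652 under array weights, and the 3519 shared calls under each of 29 (2987 to 5148). Leaving out each array in turn gave 4578 to 6126 on day 0, 5745 to 6779 on day 6, 977 to 1541 for the difference and 3047 to 3947 shared. Median scaling shifted the differences by a median of 0.24 (day 0) and 0.22 (day 6) and raised the share of calls that were higher in IgG to 57.5% and 60.1%, against 48.2% and 51.5%.

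The numbers did not pair IgG with input arrays: same-numbered deviations correlated at -0.15 to 0.10 on day 0 and 0.00 to 0.05 on day 6. A replicate block on the experiment number left 5075, 6259 and 1081 probes called on day 0, on day 6 and in the difference. Input arrays of the same number averaged, added after the data were seen, gave 4656, 5707 and 887. Same-numbered IgG arrays of days 0 and 6 correlated at 0.39, -0.04, 0.37 and 0.69, not all over 0.1; a replicate block across days, also added later, called 998 probes between days in IgG, against 459 without it.

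The step from dim to bright probes kept its sign in 32 alternatives per day. With no detection filter it was -0.18 on day 0 and -0.22 on day 6. On day 6 it was -0.78 over probes detected on every array of at least 1 group and -0.36 without the 2 dim IgG arrays, and leaving out each array gave -0.41 to -0.26 on day 0 and -0.57 to -0.36 on day 6. Of the called named probes only ILMN_2977331 lost its call.

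At a detection p under 0.01, IgG minus input in detected share was -3.53 points on day 0 (exact permutation p = 0.183) and -4.10 on day 6 (p = 0.0317). Leaving out each array gave -6.13 to -2.05 points on day 0 and -4.86 to -1.49 on day 6. The day 0 p rose above 0.05 when any 1 of 8 of the 9 arrays was left out. The mean signal difference lay between -22.4 and 46.4 on day 0, and between -5.06 and 26.3 on day 6, changing sign without single arrays: -22.4, -0.74 and -3.53 without IgG arrays of experiments 1, 3 and 4 and -11.5 without the input array of experiment 4 on day 0, and -3.55, -1.93 and -5.06 on day 6. The median signal was higher in IgG by 10.7 on day 0 (exact permutation p = 0.00794, the smallest possible) and by 5.73 on day 6 (p = 0.222). The causes were not tested.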
